A study of Mus musculus with 2 samples.

Results

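Histones were described here as a gene group in the brain of control mice at postnatal day 5. A gene was counted as a histone gene when it had a protein-coding transcript and a symbol starting with Hist1h, Hist2h, Hist3h, Hist4h, H2af, H3f3, H1f or H2b, or was Cenpa. This gave 84 of the 45578 genes in the table, of which 21874 had a protein-coding transcript. The 84 genes were 67 genes of the Hist clusters, called replication-dependent here by their symbol alone, and 17 variant genes. The 67 include the testis genes Hist1h1t, Hist1h2aa and Hist1h2ba. A further 9 genes carried a histone name but no protein-coding transcript, and served only for comparison.

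Brain extracts of mice with the genotype Smn+/-; SMN2tg/0, on an FVB background, were profiled by RiboLace in 2 biological replicates of 1 group. The mice, of the line called Taiwanese, are heterozygous for Smn and carry a human SMN2 transgene, so they are controls of a spinal muscular atrophy line and not wild-type animals. No treatment and no other genotype was part of the design. RiboLace captures ribosomes engaged in translation on beads, and the RNA fragments that those ribosomes protect (footprints) are then sequenced. The only contrast that such a design allows is between the libraries, with comparisons between genes made within each library.

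The gene-level totals were 343552 footprint counts for replicate 1 and 120282 for replicate 2. Levels are given as CPM, the counts scaled to a common library size, where a single count stands for 2.71 CPM in the first library and 8.93 CPM in the second. The tissue label fitted its markers: 6 of 6 neuronal markers and 5 of 5 astrocyte and radial glia markers had counts, at 0.649% and 0.660% of gene counts for the neuronal list in replicates 1 and 2. Of the lists for tissues outside the brain, the testis markers Prm1, Prm2 and Tnp1 and the liver markers Alb and Apoa1 had 0 counts in both libraries. A count of 0 allows a share of up to 0.000873% in replicate 1 and 0.00249% in replicate 2, counting error only. Acta1, a skeletal muscle actin with close paralogs in brain, had 70 and 22 counts, while the muscle myosin Myh1 had 1 and 0. Erythroid genes held 0.309% and 0.291% of counts.

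Histones package DNA. Pairs of H2A, H2B, H3 and H4 form the core of the nucleosome, and linker histones of the H1 family bind where DNA enters and leaves it. Replication-dependent genes lie in clusters as many near-identical copies without introns, and are known for messenger RNAs that end in a stem-loop instead of a poly(A) tail and are made in S phase. Variant histones come from single, mostly intron-containing genes with polyadenylated messenger RNAs, are made through the cell cycle, and replace canonical histones in cells that no longer divide, such as neurons.

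Footprints were counted on 77 of the 84 genes, each of them in both libraries. Of the 67 replication-dependent genes, 66 had counts and 65 averaged 10 or more counts over the libraries. Of the 17 variant genes, 11 had counts and 10 reached that mean. For comparison, of all 21874 protein-coding genes 14480 had counts and 4392 reached that mean. The 7 genes at 0 in both libraries were Hist1h1t and H1fnt, linker histones of male germ cells, H1foo, the linker histone of the oocyte, H2afb1, H2afb2 and H2afb3, short H2A variants known from testis, and H2bfm. The 2 remaining genes below a mean of 10 counts were Hist1h2aa, with 6 and 2 counts, and Cenpa, with 2 and 1. Leaving H2bfm aside, the genes without counts were thus genes best known from germ cells. The tissue of H2bfm was not examined here.

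Summed over the 84 genes, histones took 1.91% and 1.85% of gene counts in replicates 1 and 2 (95% Wilson intervals 1.86 to 1.96 and 1.77 to 1.93), a mean of 1.88% ± 0.043 (SD, n = 2). Replication-dependent genes made up 92.6% and 92.1% of these histone counts (95% Wilson intervals 91.95 to 93.2 and 90.9 to 93.2), a mean of 92.4% ± 0.338 (SD, n = 2). A fragment that matches several copies can enter these sums more than once. With only the highest gene of each family and class, 10 genes in all, the histone share was 0.243% ± 0.00020 (SD, n = 2), and replication-dependent genes held 76.1% ± 1.30 (SD, n = 2) of it. The number of distinct histone footprints cannot be read from the table. The sums over all members were 6562 and 2224 counts, and those over the 10 highest genes 835 and 292.

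**Figure D1:**
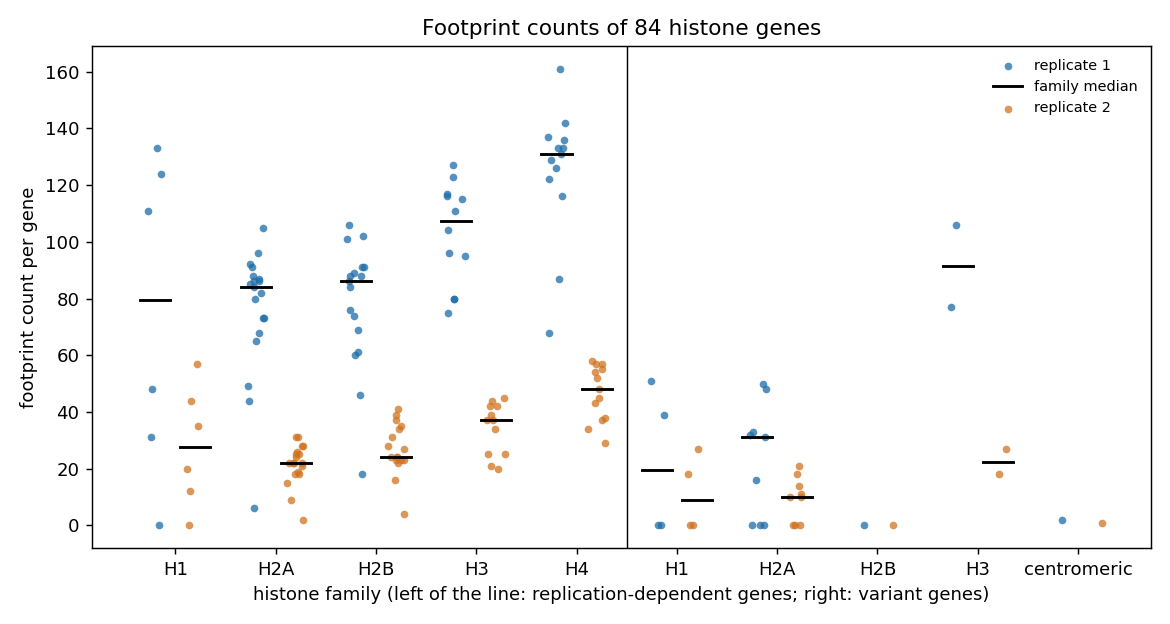
Footprint count per gene (vertical axis) for the 84 histone genes by family, with replication-dependent genes left of the line and variant genes right of it. Each point is a gene in a replicate and each bar a family median; H4 genes reach 161 counts in replicate 1, and 7 genes lie at 0 in both libraries.

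H4 genes carried the highest counts. Their 13 copies ranged from 68 to 161 counts in replicate 1 (median 131) and from 29 to 58 in replicate 2 (median 48). Hist1h4h was the highest histone gene of the table in replicate 1, with 161 counts, and had 57 in replicate 2. Hist1h4a had 133 and 58 counts, and Hist1h4d 129 and 57. The copies outside the first cluster were lower: Hist2h4 had 87 and 29 counts and Hist4h4 had 68 and 34. In replicate 1 both lay below every Hist1h4 gene, the lowest of which was Hist1h4k with 116 counts; in replicate 2 both lay below the lowest Hist1h4 gene as well, Hist1h4f with 37.

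H3 genes of the first cluster lay above those of the second. The 9 Hist1h3 genes had 95 to 127 counts in replicate 1 (median 115) and 20 to 45 in replicate 2 (median 39). The 3 Hist2h3 genes had 75 to 80 and 21 to 25 counts. The groups did not overlap in replicate 1 but did in replicate 2, where Hist1h3g had 20 counts. Hist1h3i was the highest, with 127 and 45 counts.

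H2A and H2B genes had similar counts in replicate 1. The 19 H2A genes had medians of 84 and 22 counts in the 2 libraries, and the 17 H2B genes 86 and 24. By the sum over the libraries, Hist1h2ap was the highest H2A gene, with 105 and 25 counts, and Hist1h2bc the highest H2B gene, with 102 and 41. Some copies stood below their family. Hist2h2be, an H2B gene whose annotated transcript of 2620 nucleotides has a 3' untranslated region of 2192, had 18 and 4 counts, the lowest of the H2B genes. Hist2h2ab had 44 and 9 counts and Hist2h2ac 49 and 22, while Hist2h2aa1 and Hist2h2aa2 of the same cluster had 80 and 22, and 87 and 31. Hist1h2ba, which encodes the H2B of male germ cells, had 46 and 16 counts although the testis markers were at 0; its H2A counterpart Hist1h2aa had 6 and 2. Whether the counts of Hist1h2ba came from other H2B copies was not tested.

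Of the replication-dependent families, the linker histones differed most among themselves in count. Hist1h1e had 133 and 57 counts, Hist1h1c 124 and 44, and Hist1h1d 111 and 35. Hist1h1b had 48 and 20 counts, and Hist1h1a 31 and 12. The first 3 genes lay above the other 2 in both libraries. The replacement linker histones came lower than those 3: H1fx had 51 and 18 counts, and H1f0, known to accumulate in differentiated cells, 39 and 27. Together H1f0 and H1fx held 16.8% and 21.1% of all H1 counts (95% Wilson intervals 13.8 to 20.2 and 16.2 to 27.1), with intervals that overlap.

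Among the variants of the core histones, H3f3b was the highest in both libraries, and H3f3a came next in replicate 1. These genes encode the same H3 variant, which is placed outside replication. H3f3b had 106 counts in replicate 1 and 27 in replicate 2, and H3f3a 77 and 18. H3f3b was above H3f3a in both libraries, and both lay within the range of the replication-dependent H3 genes in replicate 1; in replicate 2 H3f3a lay below that range, level with H2afx and below H2afy2. The H2A variants had fewer counts in replicate 1. H2afx, which is phosphorylated at DNA breaks, had 50 and 18, and H2afj 33 and 10. H2afy2 and H2afy, which encode macroH2A with a large extra domain, had 48 and 21, and 32 and 14. H2afz and H2afv, which encode the H2A.Z forms found at promoters, had 31 and 11, and 16 and 10. The H2afz counts lay on a processed transcript without a coding sequence, and its coding isoform H2afz-001 had 36 and 4. In replicate 1 all 6 of these variants lay below the median replication-dependent H2A gene, and in replicate 2 as well. Cenpa, the H3 variant of centromeres, had too few counts to compare.

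Levels of different genes were compared as footprint density, the CPM on the coding transcript with the most counts, per kilobase of its coding sequence. The median density was 612 in replicate 1 and 633 in replicate 2 over the 67 replication-dependent genes, and 112 in both replicates over the 17 variant genes. On the log2(density + 1) scale the variant median was lower by a difference of -2.46 ± 0.037 (SD, n = 2). The 6 variant genes at 0 weigh on this value: over the 77 genes with counts the difference was -1.44 ± 0.019 (SD, n = 2). Genes are not replicates and copies share sequence, so no test was made of this difference. For the scale of the table, the median over the 14480 protein-coding genes with a count was 13.4 in replicate 1 and 13.3 in replicate 2.

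**Figure D2:**
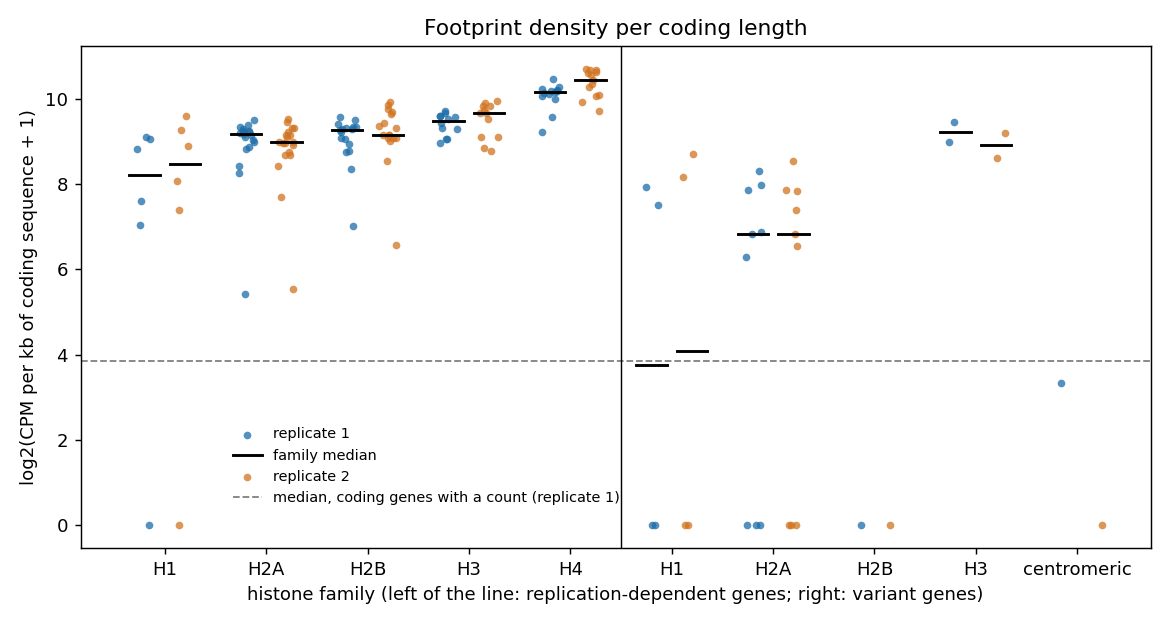
Footprint density as log2(CPM per kilobase of coding sequence + 1) by histone family, replication-dependent genes left of the line and variant genes right of it. Points are genes, bars are family medians, and the dashed line is the median of coding genes with a count in replicate 1; H4 genes are highest, and H3f3b lies highest among the variant genes in both libraries.

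By density the families followed the order H4, H3, H2B, H2A and H1 in both libraries. The family medians were 1138 and 1374 for H4 (replicates 1 and 2), 709 and 804 for H3, 612 and 563 for H2B, 579 and 504 for H2A, and 323 and 368 for H1 with Hist1h1t at 0 included. Neighbouring families overlapped gene by gene in both libraries, except that the lowest H4 gene of the first cluster, at 1008 and 1059, lay above every H3 gene, the highest of which reached 837 and 978. The number of near-identical copies differs between families, and its part in this order was not tested. H4 genes have the shortest coding sequence of the replication-dependent genes, 312 nucleotides, which raises their density relative to their count.

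Variant densities spread widely. H3f3b stood at 643 ± 79.4 (SD, n = 2) and H3f3a at 449 ± 82.5, near the H2A and H2B medians. H2afx followed at 343 ± 41.3, then H1f0 at 296 ± 164 and H1fx at 264 ± 28.1 (each SD, n = 2). H1f0 and H1fx are not separated beyond that spread. H2afj stood at 229 ± 0.240, H2afz at 172 ± 113, H2afv at 171 ± 83.9, H2afy2 at 142 ± 36.3 and H2afy at 94.6 ± 24.2 (each SD, n = 2). From H2afz to H2afy2, neighbours in this order did not differ by more than their SD, while H2afy2 lay above H2afy in both libraries. An SD over 2 libraries does not measure counting error, which also limits this order. H2afj rests on 33 and 10 counts, so its SD of 0.240 does not mark a precise level. Hist1h4h, at 1515 ± 165 (SD, n = 2), had the highest mean density of all histone genes. Of the 100 protein-coding genes with the highest mean density, 14 were histone genes, of which 11 were H4 genes. Histone genes made up 84 of the 21874 protein-coding genes. H4 copies that share fragments can enter such a list together, so they are not separate observations.

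**Figure D3:**
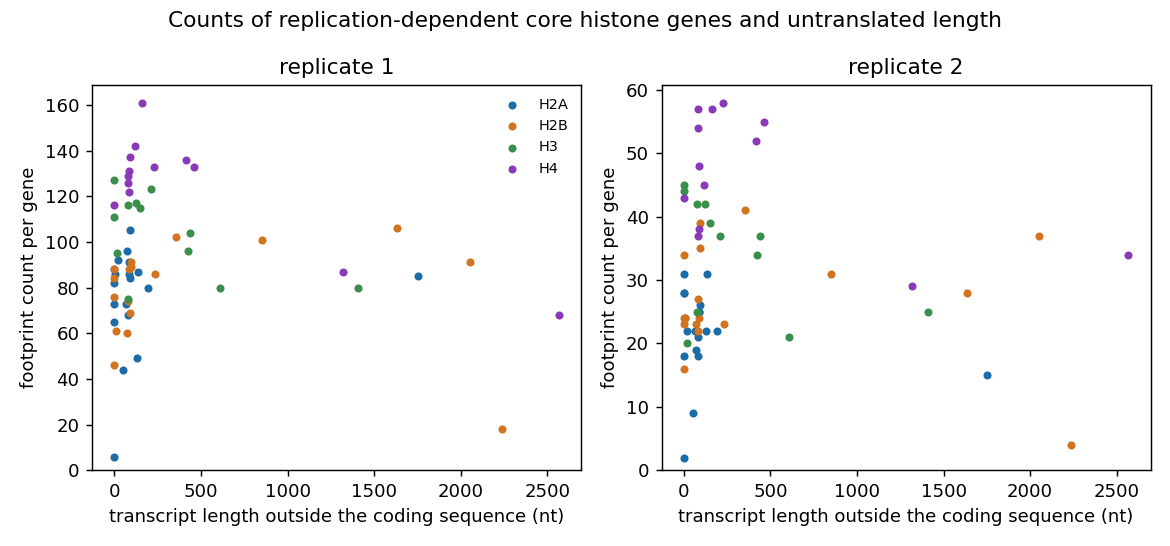
Footprint count per gene (vertical axis) against the transcript length outside the coding sequence in nucleotides for the replication-dependent H2A, H2B, H3 and H4 genes, in each replicate. The H2B genes without untranslated sequence lie among or below most copies with long untranslated sequence and the H3 genes above them, and the H2B gene at 18 counts in replicate 1 is Hist2h2be.

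Counts did not follow the annotated untranslated length in a common way across families. Hist1h2bn, whose transcript of 381 nucleotides is coding sequence alone, had 84 and 34 counts. Hist1h2be, with the same coding length in a transcript of 2433, had 91 and 37, and Hist1h2bq, with a transcript of 2015, had 106 and 28. Among H4 genes, Hist1h4k, of 312 coding nucleotides alone, had 116 and 43 counts and Hist1h4j, with 430 nucleotides of 3' untranslated region, 133 and 55. Over the replication-dependent H2B genes without Hist1h2ba, the median in replicate 1 was 84 counts for 3 genes with no untranslated sequence, 80 for 8 genes with some but under 300 nucleotides of it and 101 for 5 genes with 300 or more, and in replicate 2 it was 24, 24 and 31. The H3 genes went the other way: the 2 without untranslated sequence had 111 to 127 and 44 to 45 counts. They lay above all 4 with 300 or more nucleotides of it, at 80 to 104 and 21 to 37. The 6 H3 genes with some but under 300 nucleotides had 75 to 123 and 20 to 42. Of the long ones, Hist2h3c1 and Hist2h3c2 are of the second cluster, so length and cluster cannot be told apart for them. Hist1h3e and Hist1h3f, of the first cluster, had 96 and 34, and 104 and 37. Among isoforms, Hist1h2be-003, a processed transcript of 2099 nucleotides without a coding sequence, had 2 and 1 counts, against 91 and 37 on the coding isoform Hist1h2be-001. The copies with the longest transcripts, Hist4h4 and Hist2h2be, were among the lowest of their families.

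Isoforms of the variant genes showed where their counts lay. H2afy-001 and H2afy-002, coding isoforms of 2046 and 2037 nucleotides, had 32 and 14, and 31 and 11 counts, while the retained-intron isoform H2afy-004, of 4018 nucleotides, had 13 and 1. H3f3b-001 and H3f3b-201, with the same coding length, had 106 and 27, and 98 and 26. The 7 isoforms of H2afz were less even between libraries: the full coding isoform H2afz-001 had 36 and 4 counts, the processed transcript H2afz-006 had 31 and 11, and H2afz-007, with a shorter coding sequence, had 25 and 12. The order of the H2afz isoforms therefore differed between replicates. Of the Cenpa isoforms, a retained-intron transcript (Cenpa-010) had the 2 and 1 counts, and the full coding transcript Cenpa-001 had 0 in both.

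Fragments that may be shared between copies limit the reading of single replication-dependent genes. As a measure of spread, the variance of the counts over a set of copies was divided by their mean. For independent counts of a single level this ratio is near 1; for copies that share fragments it can be lower, so a value near 1 does not show a single level. Over whole replication-dependent families it was 4.55 and 2.06 for H4 (replicates 1 and 2), 3.09 and 2.44 for H3, 6.77 and 2.40 for H2A, and 6.38 and 3.08 for H2B. Within the first cluster, leaving out Hist1h2aa and Hist1h2ba, it was lower. Over the 11 Hist1h4 genes the ratio was 1.03 in replicate 1 and 1.20 in replicate 2. Over the 9 Hist1h3 genes it was 1.13 and 1.52, and over the 13 Hist1h2a genes without Hist1h2aa 1.58 and 0.702. The first-cluster H3 and H4 copies were thus more even than their whole families. The whole H2A and H2B families include Hist1h2aa and Hist1h2ba, low genes of the first cluster that the first-cluster sets leave out. Low genes outside the first cluster, Hist2h2be and Hist2h2ab among them, are left out as well. For H2A and H2B these ratios alone therefore do not show which part of the drop goes with the cluster. The ratio over the whole families without only Hist1h2aa and Hist1h2ba was not computed. The 14 Hist1h2b genes without Hist1h2ba gave 2.51 and 1.49, and the 5 linker genes Hist1h1a to Hist1h1e gave 24.3 and 9.74.

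Entries without a coding transcript also carried histone counts. Hist1h2aj, an unprocessed pseudogene in the annotation, had 75 and 18 counts, within the range of the coding H2A copies. Hist2h2bb, annotated as a lincRNA, had 45 and 11, and the processed pseudogene Hist3h2bb-ps had 43 and 15. The H3 variant genes have processed pseudogenes too: H3f3c had 43 and 7 counts, H3f3a-ps2 38 and 7, and H3f3a-ps1 34 and 7, against 77 and 18 on H3f3a. The pseudogene of macroH2A, H2afy3, had 14 and 4. H2af-ps and the antisense gene H3f3aos had 0. Where the counts on these entries came from was not tested. None of the 77 histone genes with counts had exactly the same pair of counts as another. Over all genes, isoform pairs with equal coding length and at most 10 nucleotides of difference in length, 89 pairs in replicate 1 and 23 in replicate 2, had a squared difference over their sum of 0.407 and 0.419 on average, where 0 means that every fragment was counted on both and 1 that the counts were independent. Both values lie below 1, so the counts of such isoform pairs were closer to each other than independent counts would be. They also lie above 0, so not every fragment was counted on both. The exact rule for a fragment that matches several transcripts cannot be read from these values. How far histone copies share fragments was not measured.

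Between the libraries, 1 of the 75 histone genes that averaged 10 or more counts differed at an adjusted p under 0.05 (exact binomial test per gene, 2-sided, Benjamini-Hochberg adjustment over 5436 genes). Over all genes tested, 225 of 5436 or 4.14% were called (42 of the 4392 protein-coding ones, or 0.956%), 3.99% in the direction of replicate 2 and 0.147% in the other. Before adjustment, 6 of the 75 histone genes, or 8%, had p under 0.05, against 9.6% of all genes tested and 5.62% of the protein-coding ones, the class to which the histone genes belong. The gene called was H1f0, with 39 counts in replicate 1 and 27 in replicate 2. Its level was 106 CPM in the first library and 241 CPM in the second, a log2 ratio on log2(CPM + 1) of 1.18 (counting SE 0.361, adjusted exact binomial p = 0.0458). The call was lost with library totals (adjusted p = 0.151), among protein-coding genes alone (0.137) and with a preset biological coefficient of variation of 0.2 (0.880). It compares these libraries, not conditions.

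**Figure D4:**
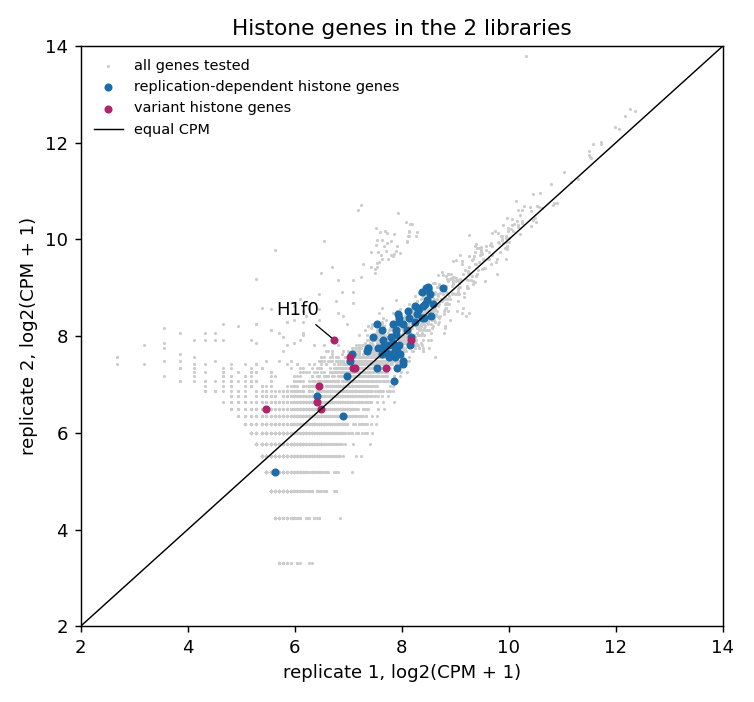
Level of each tested gene in replicate 1 (horizontal axis) and replicate 2 (vertical axis) as log2(CPM + 1), with all 5436 tested genes in grey, the 75 tested histone genes in colour and a line of equal CPM. Histone genes lie along the line, with 50 above and 25 below it; H1f0 is the histone gene called.

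The other histone genes did not pass the threshold. The median log2 ratio of replicate 2 over replicate 1 was 0.22 over the 75 genes, against 0.0041 over all genes tested and -0.016 over the protein-coding ones. By family the medians were 0.35 for the 5 replication-dependent H1 genes tested, 0.29 for the 13 H4 genes, 0.20 for the 17 H2B genes, 0.19 for the 12 H3 genes and -0.14 for the 18 H2A genes. Library totals in place of TMM factors lowered the median of all genes to -0.20; H1 at 0.14 and H4 at 0.082 then kept their sign, H2A stayed below 0 at -0.35, and H2B at -0.0094 and H3 at -0.015 changed sign. Relative to all genes, H1, H2B, H3 and H4 lay above and H2A below. The size of these offsets depended on the filter. With at least 1 count in each library, the median minus that of all genes was 0.21 for H1 and -0.28 for H2A. It was 0.056 for H2B, 0.051 for H3 and 0.15 for H4. The main setting gave 0.34, -0.15, 0.19, 0.19 and 0.28 in that order. A change of scaling shifts the log2 ratio of every gene by nearly the same amount, so it cannot test these relative positions. Copies within a family may share fragments, and a family median then gains no precision from their number. Hist4h4 had the highest ratio of the replication-dependent genes, 0.72 (counting SE 0.303, adjusted exact binomial p = 0.296). Hist3h2a had the lowest of all histone genes, -0.78 (counting SE 0.404, adjusted exact binomial p = 0.565), with 85 and 15 counts.

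The H2A genes held 23.7% and 19.9% of replication-dependent counts in replicates 1 and 2 (95% Wilson intervals 22.6 to 24.8 and 18.2 to 21.7), and the H4 genes 26.7% and 29.6% (25.6 to 27.8 and 27.7 to 31.6). The H2A intervals did not overlap and those of H4 overlapped narrowly. These intervals cover counting error only and treat each count as a separate fragment, so they are too narrow where a fragment was counted on several copies. H2B, H3 and H1 had overlapping intervals.

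The genes that supply, carry and place histones were read from lists of the same kind. Of 11 genes for processing and control of stem-loop histone messenger RNAs, all 11 had counts, 5 were tested and 0 were called by the exact binomial test. With 4.14% of all genes and 0.956% of the protein-coding ones called, a count of 0 in lists of this size says little. Lsm11, a subunit of the U7 particle that cuts these messengers, was highest with 40 and 13 counts. Slbp, which binds the stem-loop, had 11 and 2, and Npat, which activates histone gene transcription in S phase, 6 and 3. Of 17 histone chaperones, 13 were tested and 0 were called. By its sum Nap1l5 led this list, with 93 and 27 counts, Nap1l1 had 74 and 21, Nap1l4 60 and 29, and the nuclear H3 and H4 chaperone Nasp 40 and 15. The subunits Chaf1a and Chaf1b of the factor that loads H3 and H4 during replication had 3 and 0, and 2 and 0 counts. Of 12 genes for placing variants, 7 were tested and 0 were called. Atrx, which with Daxx places the variant encoded by H3f3a and H3f3b in repeats, had 58 and 16 counts, Daxx 8 and 3, and Hira, which places it in genes, 9 and 4. Anp32e, which removes H2A.Z, had 15 and 9.

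Markers of S phase and cycling cells stood low beside the replication-dependent histones. All 15 had counts, and together they took 0.0556% and 0.0665% of gene counts (95% Wilson intervals 0.0483 to 0.0641 and 0.0534 to 0.0828). By its sum Pcna, the replication clamp, was highest, with 39 and 10 counts. Rrm1, a subunit of ribonucleotide reductase, had 26 and 14, more than Pcna in replicate 2, and Mki67 had 16 and 5. The density of Pcna was 124 ± 14.7 (SD, n = 2), below that of 64 of the 67 replication-dependent histone genes. A fragment that matches several histone copies may count on each of them. Its part in this comparison was not tested. Of the 6 tested, 1 was called, against 4.14% of all genes and 0.956% of the protein-coding ones: Mcm7, with 10 and 16 counts (log2 ratio 2.36, counting SE 0.582, adjusted exact binomial p = 0.0012). Those counts lay on a retained-intron transcript of 986 nucleotides, and the coding transcript of Mcm7 had 12 and 5. In whole brain, fewer cells of a type and less RNA per cell cannot be told apart, so these values do not say how many cells made histones.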

How the data were processed

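Active ribosome profiling by RiboLace was analysed in 2 replicates of 1 group. The authors deposited whole-number footprint counts per transcript, not normalised, with transcript, coding and untranslated lengths under Ensembl identifiers. Per the submitters' processing notes, Trimmomatic 0.36, Bowtie2 2.2.6, SAMtools and the build GRCm38.p4 were used. The counting tool, the annotation release and the treatment of fragments that match several transcripts are not given in the sources used here, and no genomic coordinates were used. The replicates are called biological in the labels; whether each is a single animal is not stated.

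The transcript with the highest summed count stood for its gene, a choice that favours genes with many isoforms. Densities used the protein-coding transcript with the highest summed count. CPM used effective library sizes from edgeR 4.0.16 with TMM (factors 1.07 and 0.931) over the 5436 genes that averaged 10 or more counts. With 1 group, edgeR's quasi-likelihood test could not be fitted. The exact binomial test compared the libraries for each gene, with Benjamini-Hochberg adjustment over all genes tested and a threshold of 0.05. It was tested on simulated data drawn with counting error alone, the model of the test itself. That check therefore says nothing about other variation between these libraries. Log ratios used a pseudocount of 1. Wilson intervals are at 95% and cover counting error only, since the labels mention no molecular identifiers and PCR copies are then not separate molecules. P-values measure only the difference between these 2 libraries.

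Of the 84 members, 82 were found by identifier in the name table, 81 of them under an equal symbol. Named genes were those averaging 10 or more counts, the highest of each family among the rest, and pseudogenes called copies of members; log2 ratios were taken for the 3 highest and 3 lowest members. In the text, members were further chosen to show each family. Members and lists were chosen with earlier results of these data known. Alternatives covered scaling, filters, isoform choice, length, pseudocount and single replicates.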

Additional observations from a re-analysis of the deposited data

How the results depend on the processing

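The histone share of 1.88% of gene counts became 2.44% of protein-coding counts, 1.10% with isoforms summed (histone genes have few isoforms, so the total grows more than their own sum), 1.92% with the isoform of longest coding sequence and 0.243% with only the highest gene of each family and class, and was 1.85% to 1.91% in single replicates. The replication-dependent share of 92.4% became 84.0% with isoforms summed and 76.1% with only the highest genes, and was 92.1% to 92.6% in single replicates. The density difference of -2.46 became -3.33 per transcript length, -1.74 with isoforms summed, -1.36 over genes averaging 10 or more counts and -1.44 over genes with a count, and was -2.49 to -2.44 in single replicates. The lower variant median held its sign in each of these settings. None of them removes fragments that were counted on several copies, so the stable sign does not bear on such sharing. Where no cause is given, the cause was not tested. The 1 histone gene called became 0 with library totals, 0 with at least 1 count in each library, 0 with a mean of at least 50 counts, 0 among protein-coding genes alone and 0 with the preset coefficient of variation, where 5, 5, 3, 7 and 1 genes passed at an unadjusted p under 0.05 in that order. It stayed 1 with isoforms summed and with the longest coding isoform. The 75 genes that reached 10 counts were 73 to 75 in single replicates. Taking the highest genes alone, and restricting the density to genes with a count, were added after seeing the data. No paired analysis was possible because the series has 1 group. Depth limits single genes: in replicate 2 the median histone gene had 25 counts.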
